A study of Mus musculus with 6 samples.

Results

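CXCR3 and its chemokine ligands were examined in colorectal tissue of C57BL/6 mice with colitis. The set holds 4 genes that were named by symbol, Cxcl9, Cxcl10, Cxcl11 and Cxcr3, out of 18268 genes with values. They were selected on the difference between the drug groups in these same mice, so their own differences are given below as a description and without a test. Cxcl9, Cxcl10 and Cxcr3 had values, and Cxcl11 was not analysed here. RefSeq lists Cxcl11 as a transcribed pseudogene in its C57BL/6J assembly (GRCm38.p6), and this strain is known to carry a frameshift in the gene.

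All 6 mice had received dextran sulfate sodium (DSS), a polymer in drinking water that injures the gut lining, for 7 days. In addition, 3 of them received berberine (BBR), a plant alkaloid, for 6 days, and 3 received sulfasalazine (SASP), a standard colitis drug that releases aminosalicylate in the colon, for the same 6 days by gavage. According to the methods of the study, the mice were adult males. DSS was shared by both groups, and mice without DSS or without a drug were not analysed here, so each value below compares BBR with SASP and not with an untreated state.

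CXCL9, CXCL10 and CXCL11 are small secreted CXC chemokines that interferons induce, and all of them bind CXCR3, a G protein-coupled receptor on activated T cells and natural killer (NK) cells. Interferon gamma acts through its receptor and the kinases JAK1 and JAK2, and Cxcl9 is known to depend on this route more strictly than Cxcl10. Cxcl10 also responds to type I interferons and to tumour necrosis factor (TNF) through NF-kB. In the inflamed gut the ligands come from macrophages, endothelium, stromal cells and epithelium, and they draw Th1 cells and cytotoxic T cells into the tissue.

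Expression was given as FPKM, fragments scaled to transcript length and to the number of mapped reads. The depth estimated from the table was 16400000 to 16800000 reads in the BBR mice and 16800000 to 18200000 reads in the SASP mice, and 11518 to 12307 genes reached 1 FPKM in each mouse. Epithelial genes such as Epcam, Krt8 and Lgals4, smooth muscle genes and fibroblast genes were all expressed, as the labelled colorectal tissue contains these cell types. BBR mouse 3 stood apart from the other BBR mice, with 6580 FPKM summed over 8 smooth muscle genes, where BBR mice 1 and 2 had 2770 and 2850 FPKM. The SASP mice had 702 to 2210 FPKM, below every BBR mouse. Results are therefore also given without BBR mouse 3.

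The promoters of Cxcl9 and Cxcl10 are shown because both ligands moved together between the drugs and because their known inducers act through DNA motifs in this region. Each window runs from 250 bases before the transcription start to 50 bases after it (RefSeq, GRCm38.p6, chr5:92328030-92328329 for Cxcl9 and chr5:92348840-92349139 for Cxcl10, both on the minus strand and written 5′ to 3′ along the gene). Capitals mark matches to the core of the interferon-stimulated response element (ISRE, GAAANNGAA) and to a kB element of NF-kB (GGGANNTTC), on either strand.
Cxcl9: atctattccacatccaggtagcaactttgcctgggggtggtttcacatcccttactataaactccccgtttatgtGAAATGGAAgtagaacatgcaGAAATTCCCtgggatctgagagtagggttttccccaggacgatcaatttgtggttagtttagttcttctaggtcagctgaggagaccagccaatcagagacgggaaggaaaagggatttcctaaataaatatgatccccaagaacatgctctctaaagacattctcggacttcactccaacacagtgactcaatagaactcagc
Cxcl10: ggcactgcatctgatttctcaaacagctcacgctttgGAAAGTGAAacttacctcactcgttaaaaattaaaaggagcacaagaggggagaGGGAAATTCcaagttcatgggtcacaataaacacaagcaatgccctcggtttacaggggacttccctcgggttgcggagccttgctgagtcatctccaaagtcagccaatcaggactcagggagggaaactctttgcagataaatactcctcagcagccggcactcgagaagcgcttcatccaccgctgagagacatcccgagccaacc

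Both ligand promoters held 1 ISRE match and 1 kB match, with the ISRE match farther from the start. In Cxcl9 the ISRE match began 175 bases and the kB match 154 bases before the start, and in Cxcl10 they began 213 and 159 bases before it. Of 32851 promoter windows of this length, 8.56% held an ISRE match, 3.94% held a kB match and 0.387% held both. Another motif, the gamma-activated site of interferon gamma responses (GAS, TTCNNNGAA), was in 8.30% of the windows but in neither ligand promoter. The Cxcr3 window, on the X chromosome, held no match to any of the 3 motifs. A match is a run of letters and not a binding site shown by experiment, and other spellings of these elements were not searched.

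**Figure D1:**
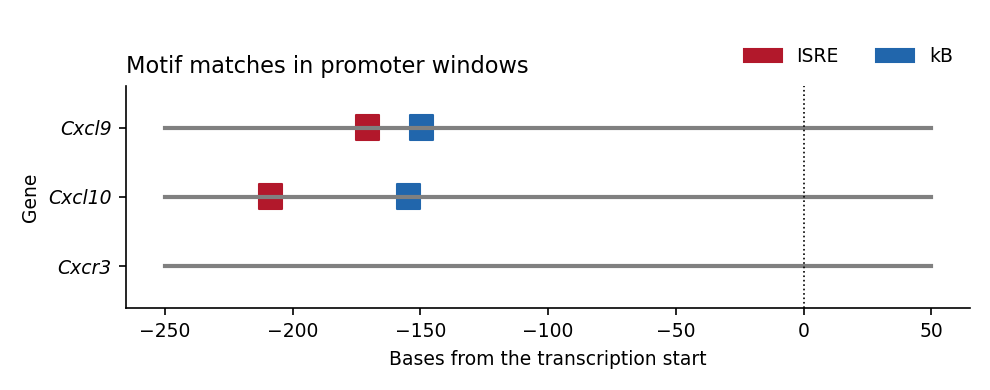
Positions of motif matches in the promoter windows of Cxcl9, Cxcl10 and Cxcr3, in bases from the transcription start (0, dotted line). Red boxes mark ISRE matches and blue boxes kB matches. Both ligand promoters carry 1 of each between 213 and 154 bases before the start, and the Cxcr3 window carries none.

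Both measured ligands were far lower in the BBR mice than in the SASP mice. Cxcl9 (Gene ID 17329) was at 0.16, 0.04 and 0.06 FPKM in BBR mice 1, 2 and 3, and at 12.96, 4.36 and 9.76 FPKM in SASP mice 1, 2 and 3. Every BBR value was below every SASP value, and the lowest SASP value was 27.2 times the highest BBR value. The means were 0.0867 ± 0.0643 and 9.03 ± 4.35 FPKM (SD, n = 3 each), a ratio of 104 of SASP to BBR. On the log2(FPKM + 1) scale, on which changes at low FPKM appear smaller than they are, the difference was -3.10 (SE 0.33). The BBR values rest on very few reads, about 8, 2 and 3 reads, against about 229 to 664 reads in the SASP mice. Counting error alone gives the ratio an approximate 95% interval of 57.9 to 187 (exact binomial on these estimated reads).

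Cxcl10 (15945) was at 2.01, 1.10 and 1.72 FPKM in BBR mice 1, 2 and 3, and at 38.96, 23.67 and 33.40 FPKM in SASP mice 1, 2 and 3. The groups were again fully apart, by a factor of 11.8 between the lowest SASP and the highest BBR value. The means were 1.61 ± 0.465 and 32.01 ± 7.74 FPKM (SD, n = 3 each), a ratio of 19.9 (counting interval 17.1 to 23.3) and a log2 difference of -3.65 (SE 0.22). Cxcl10 stood on about 40 to 74 reads per BBR mouse and 960 to 1542 reads per SASP mouse, so its level in BBR mice is better determined than that of Cxcl9. Without BBR mouse 3 the log2 differences were -3.08 for Cxcl9 and -3.69 for Cxcl10.

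Among the 12072 genes with at least 1 FPKM in at least 3 samples, which were the genes tested, Cxcl10 had the 23rd lowest and Cxcl9 the 35th lowest log2 difference. Both were among the genes called lower in BBR mice, at an adjusted p under 0.05 in limma. In that comparison 8.86% of all tested genes were called, 5.04% as lower and 3.82% as higher in BBR mice. The groups did not overlap in 16.6% of the tested genes with BBR lower and in 21.3% with BBR higher. The ligands were chosen for this contrast, so nothing is read from their calls.

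Within each mouse Cxcl10 was above Cxcl9, and FPKM allows this comparison because it is scaled to transcript length. The ratio of Cxcl10 to Cxcl9 was 12.6, 27.5 and 28.7 in BBR mice 1, 2 and 3, and 3.01, 5.43 and 3.42 in SASP mice 1, 2 and 3. Both ligands were thus closest to each other in the SASP mice, where both were high. Their order in level over the mice was the same, with SASP mouse 1 highest, followed by SASP mice 3 and 2, BBR mouse 1, BBR mouse 3 and BBR mouse 2. Cxcl9 rests on about 8, 2 and 3 reads in BBR mice 1, 2 and 3, so the BBR ratios and the order of the BBR mice are imprecise. In the SASP mice Cxcl10 exceeded 82.5% to 88.9% of all genes in the table, and in the BBR mice 33.4% to 41.7%. Cxcl9 exceeded 52.4% to 73.1% of the genes in SASP mice and 10.1% to 19.8% in BBR mice.

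Cxcr3 (12766), the receptor, was near the limit of detection in all mice. It was at 0.20, 0.13 and 0.17 FPKM in BBR mice 1, 2 and 3, and at 0.45, 0.06 and 0.39 FPKM in SASP mice 1, 2 and 3. SASP mice 1 and 3 were above all BBR mice, while SASP mouse 2 was the lowest of all, so the groups overlapped. Cxcr3 lay below the filter on low values and was not tested. Its means were 0.167 ± 0.0351 and 0.300 ± 0.210 FPKM (SD, n = 3 each), with a log2(FPKM + 1) difference of -0.14 (SE 0.14, and -0.15 without BBR mouse 3). These values correspond to about 4 to 6 reads in each BBR mouse and 2 to 14 reads in each SASP mouse. The ratio of SASP to BBR was 1.80 with a counting interval of 0.873 to 3.44. This interval pools the reads of each group and leaves out the spread between mice. With so few reads and SASP values from 0.06 to 0.45 FPKM, these data do not settle whether the receptor transcript differed.

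**Figure D2:**
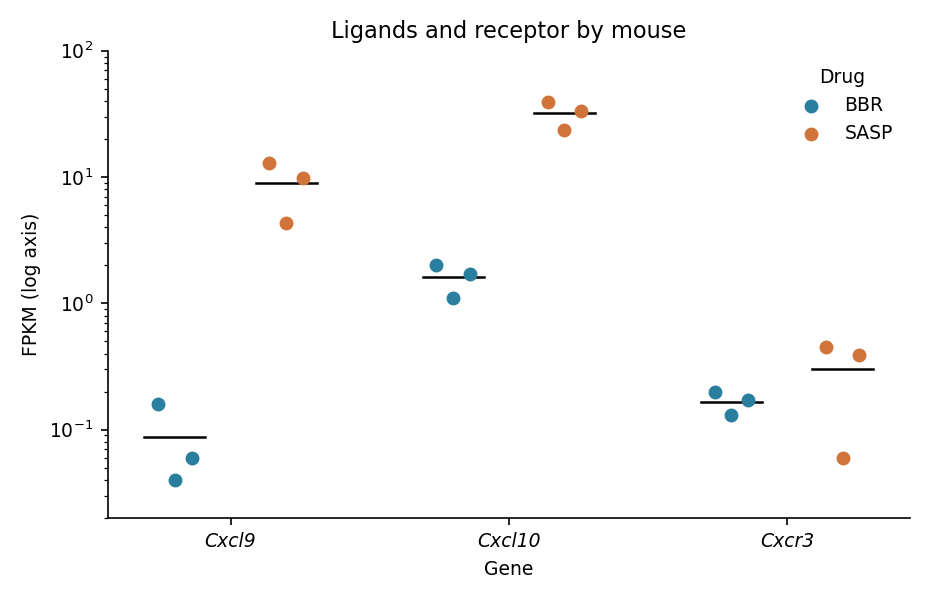
Expression of Cxcl9, Cxcl10 and Cxcr3 in FPKM (log axis) for the 3 BBR mice (blue) and 3 SASP mice (orange), with points for mice and black lines for group means. The ligands separate the groups without overlap, and for Cxcr3 the SASP mice span the BBR mice, from 0.06 to 0.45 FPKM.

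On the chromosome, RefSeq places Art3, an ADP-ribosyltransferase gene, between Cxcl9 and Cxcl10, and Cxcl11 and Nup54 follow Cxcl10. Art3 did not share the pattern of the ligands. It was at 5.60, 8.97 and 12.20 FPKM in BBR mice 1, 2 and 3 and at 3.15, 5.61 and 9.54 FPKM in SASP mice 1, 2 and 3 (log2 difference 0.53, limma adjusted p = 0.363). Sdad1, next to Cxcl9 on the far side, and Nup54 differed by -0.14 and -0.12 (adjusted p = 0.544 and 0.531). These neighbours were picked by position.

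The ligands were then set against the rest of the CXC family, which has other receptors and draws other cells. The 14 CXC ligand genes summed to 48.0, 53.1 and 130 FPKM in BBR mice 1, 2 and 3 and to 104, 88.6 and 120 FPKM in SASP mice 1, 2 and 3. Cxcl9 and Cxcl10 together made up 4.52%, 2.15% and 1.36% of this sum in the BBR mice and 49.9%, 31.6% and 36.1% in the SASP mice. Cxcl10 was the most abundant CXC ligand in each SASP mouse. In BBR mice 1 and 2 it was Cxcl12, a stromal chemokine that binds CXCR4, and in BBR mouse 3 it was Cxcl5, a neutrophil chemokine. The CXC ligands other than Cxcl9 and Cxcl10 summed to 45.8 to 129 FPKM in the BBR mice and 52.1 to 76.5 FPKM in the SASP mice, and these ranges overlap.

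**Figure D3:**
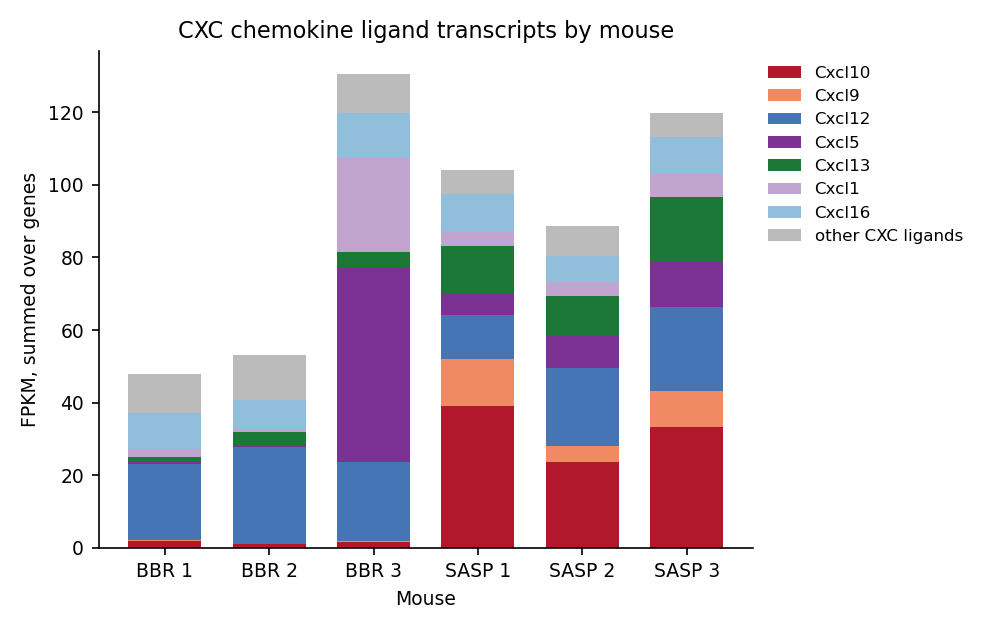
FPKM of CXC chemokine ligands, stacked by gene, in each of the 3 BBR and 3 SASP mice. Cxcl10 and Cxcl9 (red and light orange) fill 31.6% to 49.9% of the bars of SASP mice and at most 4.52% of those of BBR mice, and the tall bar of BBR mouse 3 consists largely of Cxcl5 and Cxcl1.

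Of the 17 other CXC ligand and receptor genes, 9 were tested, 1 was called lower in BBR mice, 1 was called higher and 7 were not called. In 14 of the 17 genes the groups overlapped. Among all tested genes, 8.86% were called, and without overlap 16.6% were lower and 21.3% higher in BBR mice. These shares leave out genes below the filter, which the 17 genes include. Cxcl13, which guides B cells through CXCR5, was the lower gene, at 1.38, 3.83 and 4.17 FPKM in BBR mice and 13.19, 10.92 and 18.03 FPKM in SASP mice (log2 difference -1.92, SE 0.33, limma adjusted p = 0.0219). Its groups did not overlap, but the call was lost without SASP mouse 1 or SASP mouse 3. Over the fits that left out 1 mouse, its difference ranged from -2.12 to -1.56 and its adjusted p from 0.00768 to 0.0910. Of 7 B and plasma cell genes 5 were tested and 1 was called, Cd79b, which was lower in BBR mice (-1.63, adjusted p = 0.0489). Cd79a also had every BBR value below every SASP value (-1.97, adjusted p = 0.0716), the groups overlapped in 4 of the 7 genes, and the plasma cell gene Jchain had a log2 difference of 1.2 (adjusted p = 0.273). The list summed to 144 to 199 FPKM in BBR mice and 130 to 162 FPKM in SASP mice, and the part of B cells in the Cxcl13 difference was not tested. Pf4, a platelet chemokine, was the higher gene, at 7.05 ± 0.962 and 3.67 ± 0.959 FPKM (SD, n = 3 each; log2 difference 0.80, limma adjusted p = 0.0434). Its call held in 2 of the 6 fits that left out a mouse, those without BBR mouse 3 and without SASP mouse 2, with differences from 0.68 to 0.96 over all 6. Cxcr4, Cxcl12 and Cxcl14 differed by -0.58, 0.31 and 0.43 (adjusted p = 0.142, 0.396 and 0.463).

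BBR mouse 3 had high neutrophil chemokines beside low CXCR3 ligands, while the SASP mice were above BBR mice 1 and 2 in both. Cxcl5 was at 0.63, 0.46 and 53.74 FPKM in BBR mice 1, 2 and 3 and at 5.86, 8.81 and 12.19 FPKM in SASP mice 1, 2 and 3. Cxcl1, named here after its values were seen, was at 25.85 FPKM in BBR mouse 3 and at 0.64 to 6.31 FPKM in the other mice. BBR mouse 3 thus had the highest Cxcl5 and Cxcl1 of all mice, while its Cxcl9 and Cxcl10, at 0.06 and 1.72 FPKM, stayed within the range of BBR mice 1 and 2. Cxcl5 was not called with all mice (log2 difference -0.92, limma adjusted p = 0.650), and without BBR mouse 3 it was called lower in BBR mice (-2.64, adjusted p = 0.00254). Over the 6 fits that left out a mouse, its adjusted p ranged from 0.00254 to 0.993. Without BBR mouse 3, 4 genes of this list were called, 1 higher and 3 lower. Over all 12072 tested genes, that fit called 4051, 2682 higher and 1369 lower.

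Genes of the route from cytokine to promoter were examined next and are called upstream genes here. The list also holds Socs1, a feedback gene, and Irf1 is itself induced by interferons. Whether any of these genes changed before the ligands was not tested. Of 22 upstream genes with values, 19 were tested, 7 were called lower in BBR mice, none was called higher and 12 were not called. Over all 22 genes the groups did not overlap in 10 with BBR lower and in 4 with BBR higher. In the whole set of tested genes, 5.04% were called lower and 3.82% higher in BBR mice. There the groups did not overlap in 16.6% with BBR lower and in 21.3% with BBR higher, shares that leave out genes below the filter. The median log2 difference of the tested genes was -0.10, against 0.10 over all tested genes, as large falls stood beside small rises. The genes called lower included Tnf and its receptor gene Tnfrsf1a, the interferon factors Stat2, Irf1 and Irf9, and the feedback gene Socs1. The genes of the interferon receptor chains and of the kinases Jak1, Jak2 and Tyk2 were not called.

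Ifng, which encodes interferon gamma and is named here after its values were seen, was listed at 0 in all BBR mice and at 1.19, 0.30 and 0.21 FPKM in SASP mice 1, 2 and 3. The SASP values correspond to about 26, 7 and 4 reads, and the gene lay below the filter and was not tested. SASP mouse 1 thus had most of the signal, and a fold against a group listed at 0 is not given. Ifngr2, a chain of its receptor, was higher in each BBR mouse than in each SASP mouse, at 103 ± 12.6 and 75.4 ± 7.57 FPKM (SD, n = 3 each; log2 difference 0.45, limma adjusted p = 0.0734). It passed the threshold without BBR mouse 3 (0.54, adjusted p = 0.0149, with a range of 0.0149 to 0.224 over the fits that left out a mouse). Ifnar1, a chain of the type I interferon receptor, had a log2 difference of 0.31 (adjusted p = 0.159) and also passed without BBR mouse 3 (0.42, adjusted p = 0.0186, range 0.0186 to 0.366). That fit called 4051 of all 12072 tested genes, 2682 of them higher in BBR mice.

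Stat2 and Irf9 encode parts of the complex that binds the ISRE. Stat2 was at 11.46, 10.3 and 11.25 FPKM in BBR mice 1, 2 and 3 and at 47.31, 34.2 and 44.43 FPKM in SASP mice 1, 2 and 3. The groups did not overlap, and its log2 difference was -1.83 (SE 0.14, limma adjusted p = 0.00187). Irf9 differed by -1.09 (adjusted p = 0.0186). Irf1, an interferon-induced factor that binds ISRE sequences, differed by -1.68 (adjusted p = 0.00478). Stat2 and Irf1 were called in all 6 fits that left out a mouse. Leaving out BBR mouse 1, SASP mouse 1 or SASP mouse 3 ended the call of Irf9, where its adjusted p reached 0.0867 and its difference stayed between -1.27 and -0.94. Irf7, an inducer of type I interferons, was lower in each BBR mouse but missed the threshold (-1.30, adjusted p = 0.0621).

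Socs1, the feedback inhibitor of JAK kinases, was at 2.49, 1.71 and 5.97 FPKM in BBR mice 1, 2 and 3 and at 40.14, 19.53 and 34.45 FPKM in SASP mice 1, 2 and 3. The groups were apart, and the log2 difference was -2.94 (SE 0.40, limma adjusted p = 0.0132). Tnf, the cytokine that acts on Cxcl10 through NF-kB, was at 1.02, 0.82 and 6.33 FPKM in BBR mice and 23.02, 14.90 and 33.38 FPKM in SASP mice. Its log2 difference was -2.98 (SE 0.56, adjusted p = 0.0268), and BBR mouse 3 was the highest of the BBR mice for both Tnf and Socs1. Tnfrsf1a, its receptor, differed by -0.94 (adjusted p = 0.0242). Leaving out BBR mouse 1, SASP mouse 1 or SASP mouse 3 ended the calls of Socs1, Tnf and Tnfrsf1a, and leaving out BBR mouse 2 ended those of Tnf and Tnfrsf1a. Across these fits the differences stayed within -3.34 to -2.65 for Socs1, -3.62 to -2.62 for Tnf and -1.08 to -0.82 for Tnfrsf1a, and the highest adjusted p were 0.0655, 0.108 and 0.104. The NF-kB subunit genes Nfkb1 and Rela differed by -0.35 and 0.25 and were not called (adjusted p = 0.128 and 0.176).

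In total, 3 of the 19 tested upstream genes were called without BBR mouse 1, without SASP mouse 1 or without SASP mouse 3, and 11 were called without BBR mouse 3, 7 of them lower and 4 higher. With the smooth muscle score of each mouse as a covariate, 1 upstream gene was called. Over all 12072 tested genes, 133, 127 and 96 were called without BBR mouse 1, SASP mouse 1 and SASP mouse 3. Without BBR mouse 3, 4051 of them were called, 2682 higher and 1369 lower, and with the covariate 19 were called.

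The receptor-side list held the genes that carry, trim or transmit the chemokine signal. Of 20 genes 17 were tested, 1 was called lower in BBR mice, none was called higher and 16 were not called, with a median log2 difference of 0.04. The groups did not overlap in 6 of the 20 genes with BBR lower and in 3 with BBR higher. For comparison, 8.86% of all tested genes were called, 5.04% as lower in BBR mice. Without overlap, 16.6% of all tested genes were lower and 21.3% higher in BBR mice, shares that leave out genes below the filter. Icam1, the endothelial ligand of the leukocyte integrin LFA-1, was the called gene. It was at 1.80, 2.25 and 2.21 FPKM in BBR mice 1, 2 and 3 and at 9.24, 7.23 and 8.34 FPKM in SASP mice 1, 2 and 3, with no overlap. Its log2 difference was -1.58 (SE 0.14, limma adjusted p = 0.00341), and it was called in all 6 fits that left out a mouse.

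Vcam1, another adhesion molecule of vessels, had a log2 difference of -0.63 and missed the threshold (limma adjusted p = 0.0618). Ackr3, a scavenging receptor for CXCL11 and CXCL12, was at 4.16, 6.36 and 3.28 FPKM in BBR mice and 2.28, 2.12 and 2.11 FPKM in SASP mice (0.78, adjusted p = 0.0610). Rgs1, which damps G protein signalling in lymphocytes, differed by 1.54 (adjusted p = 0.0744), and Dpp4, the protease that trims CXCL10, by -0.78 (adjusted p = 0.1004). Rac2, a GTPase of leukocyte movement, differed by -0.50 (adjusted p = 0.131). Without BBR mouse 3, 6 genes of this list were called, 3 higher and 3 lower. They were Icam1, Vcam1 and Dpp4, which were lower, and Ackr3, Arrb1 and Sdc4, which were higher. In the same fit 4051 of all 12072 tested genes were called, 2682 higher and 1369 lower, so nothing particular to this list is read from these calls.

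**Figure D4:**
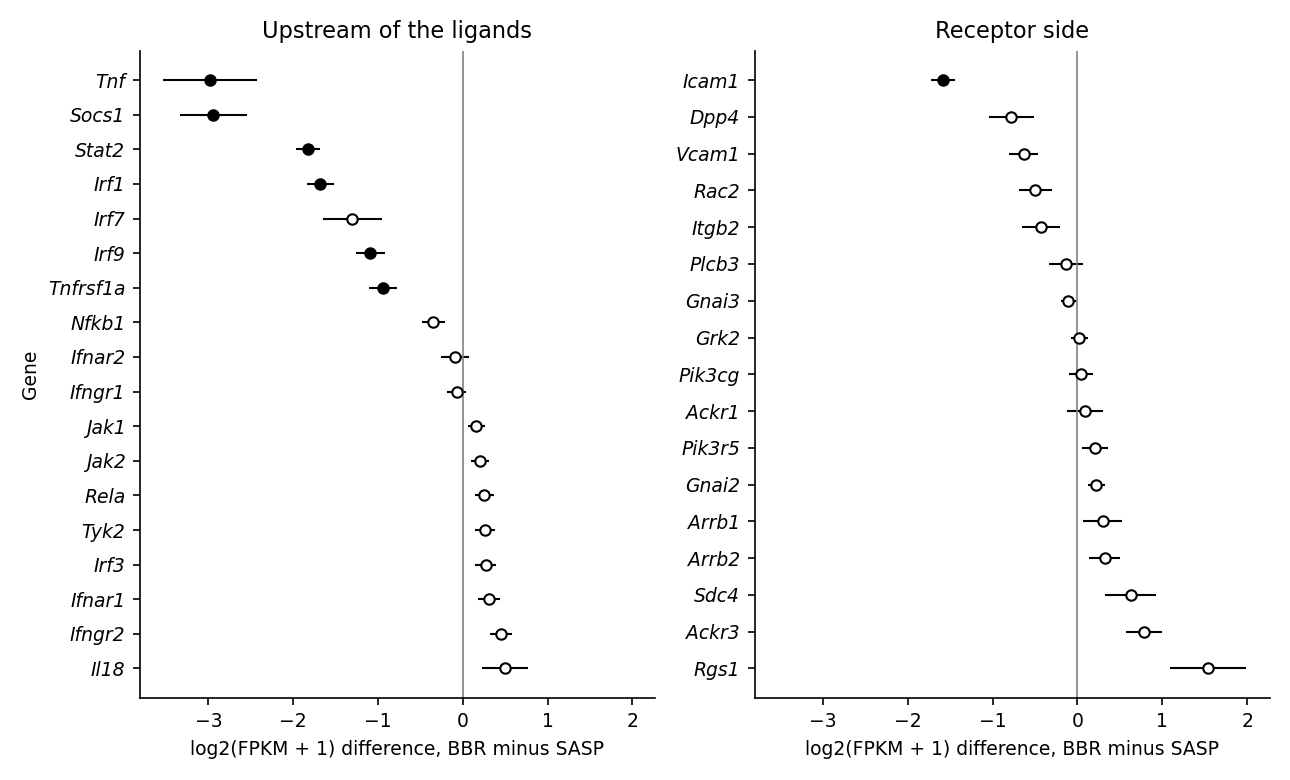
Differences in log2(FPKM + 1) between BBR and SASP mice for tested genes of the upstream list (left) and of the receptor-side list (right), with SE as bars. Filled points were called at an adjusted p under 0.05 in limma. The 6 filled upstream points and the filled point of Icam1 all lie below 0.

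Genes of the cells that carry CXCR3 were low in both groups. Of 25 T and NK cell genes, 18 lay below the filter on low values and 7 were tested, of which 1 was called and 6 were not. In 22 of the 25 genes the groups overlapped. Among all tested genes, 8.86% were called, and without overlap 16.6% were lower and 21.3% higher in BBR mice. These shares leave out genes below the filter, which the 25 genes include, so the overlap counts are not alike. Cd3e, a chain of the T cell receptor complex, was at 0.72, 1.2 and 0.57 FPKM in BBR mice and 0.67, 0.46 and 0.32 FPKM in SASP mice. Cd8a, a marker of cytotoxic T cells, was at 0.68, 0.69 and 0.72 FPKM in BBR mice and 1.09, 0.70 and 0.85 FPKM in SASP mice. Tbx21, the Th1 factor that drives Cxcr3 expression, was at 0.04 to 0.05 FPKM in BBR mice and 0.04 to 0.08 FPKM in SASP mice, about 2 to 4 reads per mouse. All of these ranges overlap.

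The called gene of the T and NK cell list went the opposite way to the CXCR3 ligands. Ccl5, a chemokine of T and NK cells, was at 3.39, 5.88 and 2.68 FPKM in BBR mice 1, 2 and 3 and at 1.15, 0.62 and 1.47 FPKM in SASP mice 1, 2 and 3. Every BBR value was higher, with a log2 difference of 1.23 (SE 0.27, limma adjusted p = 0.0407). The call held without BBR mouse 3 and was lost on leaving out any other mouse, where the adjusted p reached 0.135 and the difference ranged from 0.97 to 1.42. Nkg7 and Gzma, of cytotoxic granules, differed by -0.57 and -0.50 (adjusted p = 0.252 and 0.358), Xcl1 by -0.20 (0.529), Lck by -0.12 (0.687) and Cd3g by 0.17 (0.564).

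In bulk tissue, fewer cells of a type and less RNA per cell cannot be told apart. The 25 T and NK cell genes summed to 12 to 22.4 FPKM in BBR mice and 10.4 to 25.1 FPKM in SASP mice. Each of 6 pan-leukocyte genes, such as Ptprc, had a negative log2 difference, with a sum of 19.0 to 30.8 FPKM in BBR mice and 29.4 to 69.3 FPKM in SASP mice, and 0 of the 6 were called in limma, with 4 at an unadjusted p under 0.05 (largest change in Cd52, -1.04, adjusted p = 0.0744). The leukocyte sums overlapped and differed by a factor of 2.05 between the group means, against 104 and 19.9 for Cxcl9 and Cxcl10. Of 10 macrophage genes 9 were tested and 1 was called, Cd14, a receptor for bacterial lipopolysaccharide that was lower in BBR mice (-1.85, adjusted p = 0.00891). The share called lower was 5.04% over all tested genes. The macrophage list summed to 82.7 to 99.0 FPKM in BBR mice and 156 to 183 FPKM in SASP mice. Without Cd14 it summed to 50.4 to 78.7 FPKM and 66.7 to 80.7 FPKM, and these ranges overlap. Of 7 dendritic cell genes 1 was tested and not called, and the groups overlapped in all 7. The part of leukocyte content in the ligand differences was not tested.

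**Figure D5:**
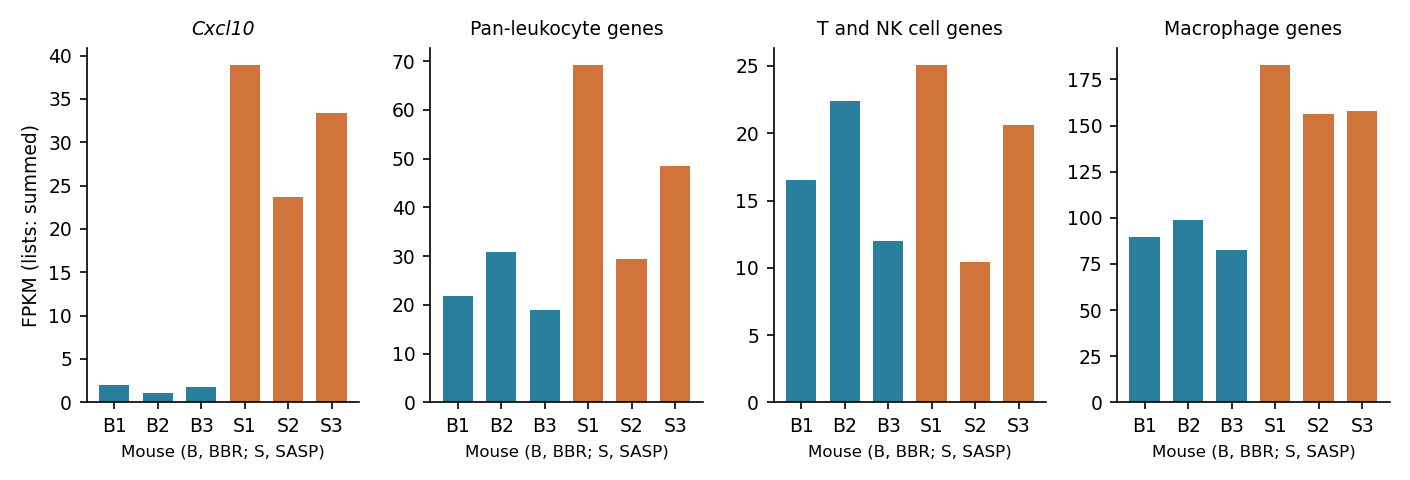
FPKM of Cxcl10 and summed FPKM of 6 pan-leukocyte, 25 T and NK cell and 10 macrophage genes in BBR mice (B1 to B3, blue) and SASP mice (S1 to S3, orange), each panel on its own axis from 0. Cxcl10 stays at or below 2.01 FPKM in BBR mice and above 23 FPKM in SASP mice, while the leukocyte and T and NK cell sums of both groups overlap.

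Within the SASP group, mouse 2 had the lowest Cxcl9, Cxcl10 and Cxcr3. It was also the lowest SASP mouse in 18 of the 25 T and NK cell genes, in 6 of 6 pan-leukocyte genes and in 11 of the 22 upstream genes. Over all tested genes it was the lowest of the 3 SASP mice in 25.3%. Without SASP mouse 2 the log2 difference was -3.50 for Cxcl9, -3.84 for Cxcl10 and -0.28 for Cxcr3. Relative to Cd3e, Cxcr3 was at 0.278, 0.108 and 0.298 in BBR mice 1, 2 and 3 and at 0.672, 0.130 and 1.22 in SASP mice 1, 2 and 3, ratios that rest on few reads and overlap between the groups.

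The tested genes closest to each ligand over the 6 mice were found by the root mean square difference of their centred log2(FPKM + 1) values. The 5 closest to Cxcl9 were Nlrc5, Oas3, Psmb9, Gm4841 and Usp18, at 0.128 to 0.204 log2 units and with Pearson r of 0.992 to 0.997. Nlrc5, the transactivator of MHC class I genes, was the closest, at 0.29, 0.36 and 0.54 FPKM in BBR mice 1, 2 and 3 and 15.29, 6.24 and 12.64 FPKM in SASP mice 1, 2 and 3. Those closest to Cxcl10 included Tap1, Gbp7, Gbp5 and Psmb9, at 0.144 to 0.286 log2 units and with r of 0.993 to 0.997. Tap1, a subunit of the peptide transporter of MHC class I loading, was at 9.30, 8.16 and 9.70 FPKM in BBR mice and 148.20, 98.51 and 158.82 FPKM in SASP mice. Psmb9, an immunoproteasome subunit, was in both sets. Cxcl9 was the 14th closest gene to Cxcl10 and Cxcl10 the 22nd closest to Cxcl9, at 0.364 log2 units (r = 0.987). All these correlations share the same 6 mice and the same group difference, and they only describe likeness.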

How the data were processed

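Expression was measured by RNA sequencing in 3 BBR and 3 SASP mice. Each sample's treatment label gave its group, and replicate numbers follow accession order and pair no mice. The deposited table holds FPKM values to 2 decimals, which the authors calculated with RSEM 1.2.12 after alignment with Bowtie2 2.2.5, versions that the submitters' processing notes also list together with build mm9. The methods of the study describe rRNA depletion and single-end sequencing on DNA nanoballs, but do not list SASP mice among those sequenced, whereas the labels of all samples name a TruSeq kit. No counts were used. RSEM shares reads that map to more than 1 gene between those genes.

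FPKM values were transformed as log2(FPKM + 1). Genes that reached 1 FPKM in 3 or more of the 6 samples entered limma 3.58.1 (R 4.3.3), with a mean-variance trend and two-sided p-values adjusted by the Benjamini-Hochberg method over all 12072 tested genes. Called means an adjusted p under 0.05. The p-values measure the spread between these mice. With 3 mice per group, the smallest two-sided p of an exact permutation test is 0.10, and that test was not used. The limma step was tested on simulated data.

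The 4 members, 4 lists of related genes and 9 marker lists were chosen with earlier results of these data known. The genes named were the members, all called upstream and receptor-side genes with up to 5 others by smallest p, up to 6 genes of each other list by smallest p with Cd3e, Cd8a and Tbx21, and the 5 genes closest to each tested ligand. Some results are not reported here, although their genes are part of the counts and medians of their lists. Exceptions are marked as named after their values were seen, and marker genes, neighbours on the chromosome and genes counted without BBR mouse 3 are named as such.

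Approximate reads were computed from FPKM, the longest GENCODE M21 transcript of each gene and a depth at which genes above 0 in 1 sample only, with transcripts under 1500 bases, stand on 1 read (31 to 56 genes per sample). Intervals cover counting error only. Promoter windows were matched by gene symbol for 3 of the 4 members. Their build differs from that of the FPKM table, so no other coordinates are given.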

Additional observations from a re-analysis of the deposited data

How the results depend on the processing

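Cxcl9 and Cxcl10 stayed lower in BBR mice under every alternative run. Their log2 differences of -3.10 and -3.65 became -5.53 and -4.24 with a pseudocount of 0.1. With the smooth muscle score of each mouse as a covariate they became -2.44 (SE 0.40) and -3.35 (SE 0.31). The call of Cxcl9 was lost in that fit, but nothing is read from the calls of the ligands, which were chosen for this contrast. Over the fits without 1 mouse the differences ranged from -3.50 to -2.81 for Cxcl9 and from -3.84 to -3.50 for Cxcl10. The difference of Cxcr3, -0.14, was -0.40 with a pseudocount of 0.1 and turned to 0.054 with the smooth muscle covariate, and it ranged from -0.28 to -0.058 without 1 mouse. Cxcl11 was not analysed here under any alternative.

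Of the upstream genes (7 called), 16 were called with array quality weights, 1 with the smooth muscle covariate and 3 at an adjusted p under 0.01, and 3 to 11 without 1 mouse. Of the receptor-side genes (1 called), 3 were called with quantile normalization, 4 with median-ratio scaling, 9 with array weights and 0 with the covariate (limma, 4 at an unadjusted p under 0.05), and 1 to 6 without 1 mouse. Of the T and NK cell genes (1 called), 2 were called with array weights. None was called with no filter, with the covariate or at an adjusted p under 0.01 (0 in limma, with 5, 1 and 1 at an unadjusted p under 0.05), and 0 to 1 without 1 mouse. Of the other CXC genes (2 called), 1 was called with no filter, 5 with array weights and 0 with the covariate or at an adjusted p under 0.01 (limma, 2 and 3 at an unadjusted p under 0.05), and 0 to 4 without 1 mouse. Over the whole table, 1069 genes (461 higher, 608 lower) became 591 with no filter, 1728 with quantile normalization, 1683 with median-ratio scaling (499 higher, 1184 lower), 7126 with array weights (4636 higher, 2490 lower), 19 with the covariate, 109 at an adjusted p under 0.01 and 96 to 4051 without 1 mouse, lowest without SASP mouse 3 and highest without BBR mouse 3. Median-ratio scaling moved the median of all tested genes by -0.117. The cause of these changes was not tested. The smooth muscle score, 7.57 to 8.70 in BBR and 5.74 to 7.30 in SASP mice on the log2 scale, separates the groups, so the covariate and the drug cannot be told apart. No paired analysis was possible because the groups share no replicate numbers in the labels. Depth limits Cxcl9 in BBR mice and Cxcr3 and Ifng in all mice.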

Other observations

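Endothelial and fibroblast genes had positive log2 differences between BBR and SASP mice. Which cells made the ligands here, and the part of these cells in the ligand differences, was not tested. All 6 endothelial genes were higher in each BBR mouse than in each SASP mouse, with a sum of 15.3 to 28.3 FPKM against 7.58 to 10.9 FPKM. Of 5 tested genes 1 was called, Emcn, a sialomucin of capillaries and veins (log2 difference 0.83, limma adjusted p = 0.0351). Over all tested genes, 3.82% were called higher in BBR mice and 21.3% had every BBR value above every SASP value. The fibroblast genes summed to 215 to 302 FPKM in BBR and 94.1 to 173 FPKM in SASP mice, and 2 of 6 were called, Col1a1 and Lum, both higher in BBR mice (adjusted p = 0.0481 and 0.0444). Leaving out BBR mouse 1, BBR mouse 2, SASP mouse 1 or SASP mouse 3 ended the calls of Emcn, Col1a1 and Lum. Smooth muscle genes were not called (0 of 8 in limma, with 6 at an unadjusted p under 0.05).

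Over all tested genes, 3.82% were called higher and 5.04% lower in BBR mice, for comparison with the counts below. Epithelial genes summed to 10200 to 13000 FPKM in BBR and 10200 to 10400 FPKM in SASP mice, with 2 of 13 called higher (Krt18 and Cdx2) and 1 called lower (Vil1). Of 4 tested granulocyte genes 1 was called, S100a8. BBR mice 1 and 2 are listed at 0 for it, BBR mouse 3 had 6.19 FPKM and the SASP mice had 18.53 to 23.14 FPKM. Of 5 tested B and plasma cell genes 1 was called lower, Cd79b, at 0.18 to 0.56 FPKM in BBR and 1.42 to 6.66 FPKM in SASP mice. Each of these 5 calls was lost on leaving out at least 1 mouse.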
